A study of Mus musculus with 10 samples.

Results

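The 10 genes described here code for proteins of the pluripotency network: the transcriptional regulators Prdm14, Tfcp2l1, Tbx3, Nr5a2, Sox2 and Utf1, the RNA-binding protein Lin28a, and the secreted or cell surface proteins Fgf4, Tdgf1 and Lefty1. They were taken by name, as pluripotency genes other than those already described from these data (Nanog, Esrrb, Pou5f1, Sall4 and others), and are 10 of the 21000 protein-coding genes with a curated RefSeq transcript on GRCm38. For each gene, every row of the deposited list of ZFP266 DamID-seq peaks that overlapped the gene, or lay within 50 kb of either end, was taken, and the outcome was set beside that of genes of similar length (0.5 to 2 times the length of the gene). The binding of ZFP266, a KRAB zinc finger protein, was mapped by DamID-seq in wild-type mouse embryonic fibroblasts (MEFs) of the 129 strain. In 5 samples the cells received the plasmid PGK-mO-Dam-Zfp266, which carries ZFP266 fused to the bacterial adenine methyltransferase Dam, and in 5 samples PGK-mO-Dam, which carries Dam only. Both plasmids have mOrange as the first reading frame behind the PGK promoter, so that Dam is made at a low level by translation reinitiation, and mOrange-positive cells were sorted 48 h after nucleofection. The deposited list holds 15119 peaks of Dam-ZFP266 over Dam only, called over all samples together, and it gives no value for a single sample.

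In DamID, the adenine of GATC is methylated wherever the fusion protein comes near. DpnI cuts methylated GATC and DpnII unmethylated GATC, so the unit of measurement is the DpnII fragment, the stretch between neighbouring GATC sequences. KRAB zinc finger proteins are known for recruiting corepressors to transposable elements, and ZFP266 has been studied at B1 SINEs, short rodent retrotransposons derived from 7SL RNA. In naive embryonic stem cells, core factors such as Sox2 and Nanog act together with Prdm14, Tfcp2l1, Tbx3 and Nr5a2, while FGF and Nodal signals tune exit from and maintenance of pluripotency. Sox2 and Lin28a are also active outside the naive state, and expression was not analysed here, so neither the naive label of the genes nor the identity of the MEFs was checked against marker levels.

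No peak of the list overlapped any of the 10 genes, where 17.1% of all protein-coding genes had a peak in the gene. None had a peak within 10 kb, where 27.2% of all genes did. Within 50 kb, 3 of the 10 genes had a peak (Lin28a, Utf1 and Lefty1), beside 49.7% of all genes. For genes of similar length the shares, averaged over the 10 genes, were 12.1% in the gene, 23.2% within 10 kb and 47.7% within 50 kb. The windows of the 10 genes spanned 1234.7 kb in sum and held 4 peaks, of which 2 were at Utf1. With 10 genes and a pooled list, these shares are descriptions without a test, and the depth of the samples is unknown. A gene without a row had no call at the false discovery rate (FDR) of 0.1 that bounds the list. That is not a measurement of no binding.

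**Figure D1:**
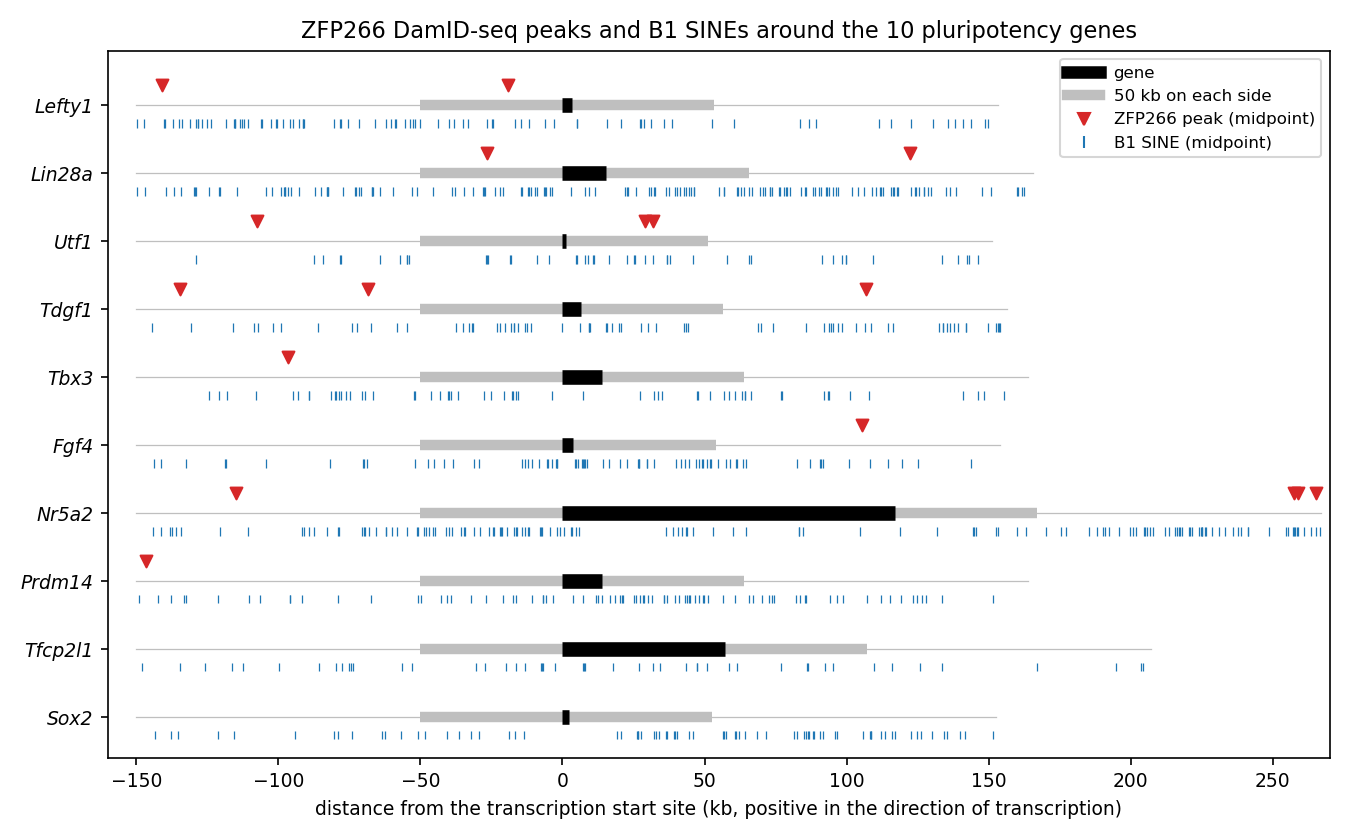
Positions of ZFP266 peaks (red triangles) and B1 SINEs (blue ticks) around the 10 genes, in kb from the transcription start site and positive in the direction of transcription, with the gene in black and 50 kb on each side in thick grey. Red triangles stand over the thick grey bar only for Lefty1, Lin28a and Utf1, none stands over a gene, and blue ticks occur under all 10 bars.

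The 3 genes with a peak within 50 kb differed in where the peak lay. Lin28a encodes an RNA-binding protein that blocks the maturation of let-7 microRNAs, and lies on chromosome 4 (chr4:134003330-134018816, minus strand). Its peak, chr4:134043775-134047083, was a single DpnII fragment of 3309 bp located 24959 bp upstream of the gene in an intergenic region. The signal value was 1.08, above that of 76.7% of the list, at an FDR of 0.0467, which equals the list median. From the midpoint of the peak, the nearest start of a protein-coding gene was that of Crybg2 at 23.0 kb, with the Lin28a start at 26.6 kb.

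Utf1, a chromatin-associated factor of embryonic stem cells, is the shortest of the 10 genes at 1257 bp (chr7:139943856-139945112, plus strand). Both peaks near it lay downstream and inside or at the end of a neighbouring gene, Spef1l (chr7:139972298-139978755, minus strand). The longer peak, chr7:139970717-139975125, covered 5 DpnII fragments and 4409 bp, began 25605 bp from Utf1, and ran from beyond the 3′ end of Spef1l into its exons and introns. Its signal value was 0.94 at an FDR of 0.0341. The shorter peak, chr7:139975458-139975934, was a single fragment of 477 bp at 30346 bp, with a signal value of 1.5 at an FDR of 0.0167. That signal value was above 97.1% of the list and was the highest of all peaks described here for the 10 genes. The Spef1l start lay 5.8 kb and 3.1 kb from the midpoints of these peaks, against 29.1 kb and 31.8 kb for the Utf1 start.

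Lefty1, a secreted inhibitor of Nodal signalling, had the nearest peak of all 10 genes (chr1:180935022-180938401, plus strand). The peak at chr1:180914222-180917256 covered 2 DpnII fragments and 3035 bp of intergenic sequence 17766 bp upstream. With a signal value of 0.64 it lay above only 12.9% of the list, and its FDR was 0.0677. The same peak was 15.1 kb from Lefty2, the neighbouring gene for a second Nodal inhibitor. The 3 genes therefore had peaks that were spread from weak (Lefty1) to strong (the shorter Utf1 peak) within the list, and at Lin28a and Utf1 another gene started closer to the peak.

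B1 SINEs were found by sequence. The consensus below was built from 26374 copies in GRCm38, and 270877 copies of at least 80 bp and 70% identity to it were found in the genome. Of the 4 peaks, the Lin28a peak held 3 B1 SINEs, each Utf1 peak held 1 and the Lefty1 peak held none, where 32.4% of all peaks held a copy. Among the 1957 peaks of 3000 to 4500 bp, the range that holds the other 3 of these peaks beside the 477 bp one, 42.6% held a copy. All 5 copies are printed in the orientation of the consensus, because they are the B1 sequences that a peak near these genes covers, and capitals mark bases that differ from the consensus or are inserted in it.
B1 consensus, 135 bases: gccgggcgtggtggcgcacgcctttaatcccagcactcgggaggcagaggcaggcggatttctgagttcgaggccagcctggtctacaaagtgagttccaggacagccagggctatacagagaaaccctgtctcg
B1 SINE in the Lin28a peak at chr4:134046048-134046173, minus strand: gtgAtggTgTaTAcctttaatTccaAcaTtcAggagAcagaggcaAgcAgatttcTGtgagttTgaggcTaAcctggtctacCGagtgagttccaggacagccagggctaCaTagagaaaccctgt
B1 SINE in the Lin28a peak at chr4:134046355-134046489, plus strand: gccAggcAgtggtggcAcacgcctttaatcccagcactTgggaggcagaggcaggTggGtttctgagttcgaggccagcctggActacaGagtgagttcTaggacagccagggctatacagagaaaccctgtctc
B1 SINE in the Lin28a peak at chr4:134046633-134046767, plus strand: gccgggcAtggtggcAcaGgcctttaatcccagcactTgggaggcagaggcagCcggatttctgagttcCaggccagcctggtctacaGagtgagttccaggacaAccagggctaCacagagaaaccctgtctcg
B1 SINE in the Utf1 peak at chr7:139972788-139972922, plus strand: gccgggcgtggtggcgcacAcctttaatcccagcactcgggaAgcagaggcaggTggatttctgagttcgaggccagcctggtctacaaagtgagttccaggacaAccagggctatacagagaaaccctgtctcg
B1 SINE in the Utf1 peak at chr7:139975515-139975628, minus strand: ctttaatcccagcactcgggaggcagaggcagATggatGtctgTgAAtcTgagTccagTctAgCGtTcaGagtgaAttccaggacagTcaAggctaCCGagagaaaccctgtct
Both plus-strand copies in the Lin28a peak were 93.3% identical to the consensus, with 9 differing bases each, and the minus-strand copy was 83.3% identical, with 21. In the longer Utf1 peak the copy was 97.0% identical with 4 differing bases, and in the shorter Utf1 peak it was 81.6% identical with 20. Both Utf1 copies lay in introns of Spef1l and the 3 Lin28a copies were intergenic. The consensus carries the KLF word GGGCGTGG at bases 4 to 11. Of the 5 copies only the 97.0% identical one at Utf1 held a KLF word. Both minus-strand copies, as matched, began inside or past bases 4 to 11, so they could not hold the word there.

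Short words were searched for on both strands by exact match. AP-1 was TGACTCA with its reverse complement TGAGTCA, and the others were CCACACCC, CCACGCCC, CCCCACCC or CCCCGCCC and their reverse complements for KLF, CCATTGT or ACAATGG for SOX, and ATGCAAAT or ATTTGCAT for the octamer of POU factors. AP-1 is the dimer of JUN and FOS proteins that is abundant in fibroblasts. An AP-1 word was present in 3 of the 4 peaks, with 4 in the longer Utf1 peak and 1 each in the Lin28a and Lefty1 peaks. Over the whole list 44.2% of peaks held one, and 66.7% of peaks of 3000 to 4500 bp. The 6 matches are printed with 30 bases on each side, because they show which AP-1 words the peaks cover, with the word in capitals.
AP-1 word in the Lin28a peak at chr4:134044823-134044889, plus strand: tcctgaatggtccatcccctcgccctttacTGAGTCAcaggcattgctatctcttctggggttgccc
AP-1 word in the Utf1 peak at chr7:139971565-139971631, plus strand: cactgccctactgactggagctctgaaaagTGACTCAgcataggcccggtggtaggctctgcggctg
AP-1 word in the Utf1 peak at chr7:139971614-139971680, plus strand: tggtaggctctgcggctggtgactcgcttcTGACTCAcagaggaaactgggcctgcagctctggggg
AP-1 word in the Utf1 peak at chr7:139973226-139973292, plus strand: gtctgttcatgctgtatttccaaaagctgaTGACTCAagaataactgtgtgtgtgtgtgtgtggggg
AP-1 word in the Utf1 peak at chr7:139974443-139974509, plus strand: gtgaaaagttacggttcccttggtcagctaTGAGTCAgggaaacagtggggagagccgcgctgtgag
AP-1 word in the Lefty1 peak at chr1:180915529-180915595, plus strand: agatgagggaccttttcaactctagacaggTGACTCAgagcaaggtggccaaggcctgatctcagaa
The AP-1 words of the Lin28a and Lefty1 peaks and the first 2 printed for Utf1 were intergenic, and the other Utf1 words lay in introns of Spef1l. KLF words numbered 12 in the longer Utf1 peak, several of them overlapping in CCCCA repeats, 4 in the Lefty1 peak and 0 in the other peaks, beside 41.9% of the list with at least 1 and 61.9% of peaks of 3000 to 4500 bp. A SOX word occurred once in the longer Utf1 peak (25.4% of the list, 41.5% of peaks of that size), and no octamer was found in these peaks (12.1% and 20.8%). A match of letters is not evidence that a factor is bound.

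**Figure D2:**
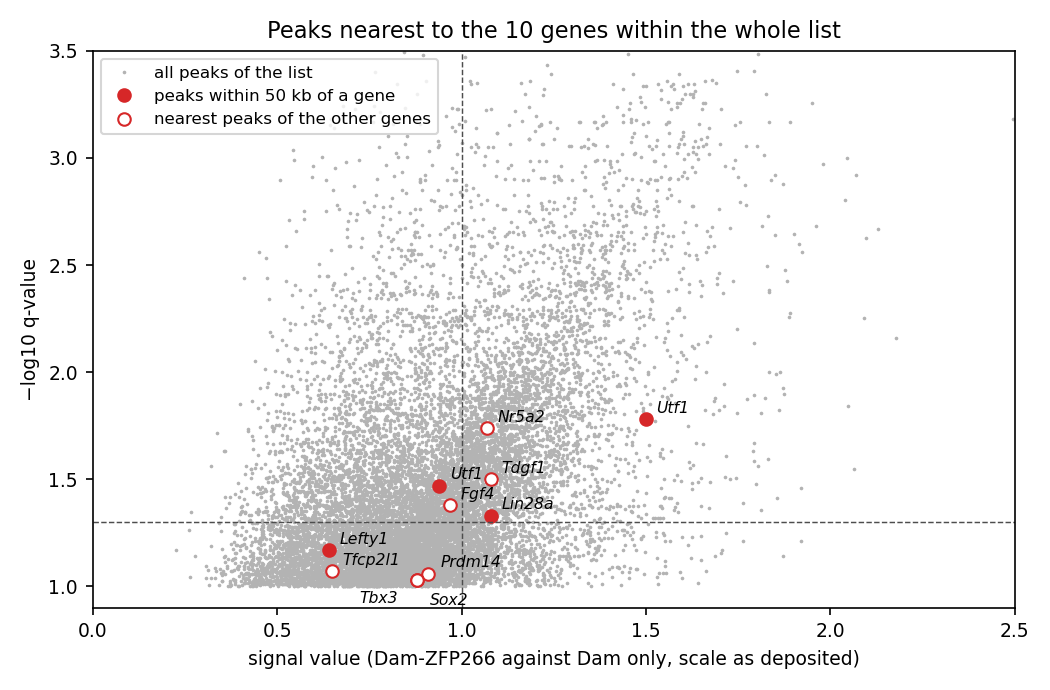
Signal value of Dam-ZFP266 against Dam only (x axis, scale as deposited) and −log10 q-value (y axis) of the peaks in the list (grey), of the 4 peaks within 50 kb of a gene (filled red) and of the nearest peaks of the other 7 genes (open red), with dashed lines at a signal value of 1 and an FDR of 0.05 and 119 peaks beyond the axes. The shorter Utf1 peak stands to the right at 1.5, the Lefty1 peak at the lower left at 0.64, and Tbx3 and Sox2 share a position at 0.88.

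The other transcriptional regulators had no peak within 50 kb. Sox2, the SRY-box factor that acts with Oct4 at pluripotency enhancers, lay farthest from any peak (chr3:34649995-34652461, plus strand). The nearest peak was 496.4 kb downstream and the next 614.2 kb upstream, so the gene sat in a stretch of 1113.1 kb without a peak. Of 3022 genes of similar length 90.6% had a nearer peak, and their median distance was 65.3 kb. Of the 2896 genes of similar length without a peak in the gene, 81.7% lay in a shorter peak-free stretch. The 1 Mb around Sox2 held 1 peak and 1 protein-coding gene start, that of Sox2. The peak, chr3:35148910-35149617, had a signal value of 0.88 at an FDR of 0.0934, near the limit of the list.

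Tfcp2l1, a CP2-family factor downstream of LIF and STAT3, is a gene of 57224 bp (chr1:118627945-118685168, plus strand). Its nearest peak was 183.1 kb upstream in an intron of Clasp1, with a signal value of 0.65 at an FDR of 0.0842. Of 5445 genes of similar length 28.2% had a peak in the gene and 84.5% had a peak nearer than that of Tfcp2l1. Nr5a2, an orphan nuclear receptor that can replace Oct4 in reprogramming, is the longest of the genes at 116865 bp (chr1:136843584-136960448, minus strand). Among 3286 genes of similar length 43.5% had a peak in the gene and 64.9% within 50 kb, while the nearest peak of Nr5a2 was 114.0 kb upstream. That intergenic peak, chr1:137074477-137076196, had a signal value of 1.07 at an FDR of 0.0183 and held 1 AP-1 word and no B1 SINE. No other protein-coding gene start was closer to it than that of Nr5a2. Nr5a2 and Tfcp2l1 were the genes for which the share of similar genes with a peak within 50 kb was highest, and neither had a row in its window. Of 1845 genes of similar length to Nr5a2 without a peak in the gene, 34.3% lay in a shorter peak-free stretch. For Tfcp2l1 it was 59.8% of 3899.

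Prdm14, a PR-domain protein that restrains FGF signalling and DNA methylation in naive cells, was 146.1 kb from its nearest peak (chr1:13113428-13127163, minus strand), and the peak lay in an intron of Ncoa2 at a signal value of 0.91 and an FDR of 0.0864. Among 7287 genes of similar length 76.3% had a nearer peak. Tbx3, a T-box factor of the naive network, was 95.6 kb from a peak in the lncRNA gene AW549542 on its upstream side (chr5:119670862-119684724, plus strand), with a signal value of 0.88 at an FDR of 0.0924. On the downstream side the next peak was 646.6 kb away. No other protein-coding gene start lay closer to the upstream peak than that of Tbx3. For 66.0% of 7302 genes of similar length the nearest peak was closer.

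The signalling genes other than Lefty1 were also without a peak in the 50 kb window. Fgf4, the ligand that drives ERK signalling in embryonic stem cells, was 101.1 kb from a peak downstream (chr7:144861386-144865245, plus strand). That peak, chr7:144966380-144967539, had a signal value of 0.97 at an FDR of 0.0418 and held 1 AP-1 word. The nearest gene start was that of Ccnd1 at 27.1 kb, and Fgf3 and Fgf15, neighbours of Fgf4, lay 123.0 kb and 65.4 kb from a peak. Of 4272 genes of similar length 63.8% had a nearer peak. Tdgf1, the EGF-CFC co-receptor of Nodal, had the nearest peak outside the window, 67.2 kb upstream (chr9:110939608-110946158, minus strand). The peak, chr9:111013348-111015650, had a signal value of 1.08 at an FDR of 0.0318 and held 1 B1 SINE, and the Ltf start was 4.8 kb away. Among 5672 genes of similar length 55.3% had a nearer peak. The window limit of 50 kb fell in a gap, since the farthest peak inside it was 30.3 kb from its gene and the nearest peak outside it 67.2 kb.

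Over the 10 genes the distance to the nearest peak had a median of 98.4 kb and ranged from 17.8 kb (Lefty1) to 496.4 kb (Sox2), beside a median of 50.8 kb over all protein-coding genes. The order from near to far was Lefty1, Lin28a, Utf1, Tdgf1, Tbx3, Fgf4, Nr5a2, Prdm14, Tfcp2l1 and Sox2. In 7 of the 10 the distance was above the median of genes of similar length. The exceptions were the 3 genes with a peak in the window. For Utf1 14.7% of 2656 genes of similar length had a nearer peak, for Lefty1 23.9% of 3921 and for Lin28a 35.5% of 7495. The genes compared with Utf1 had a median distance of 174.3 kb and were unlike it in other ways. Their median GC content was 40.53% against 50.86% at Utf1, and their median B1 density 5.94 per 100 kb against 22.71. No peak lay within 100 kb of 5 of the genes, beside 34.6% of all genes.

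**Figure D3:**
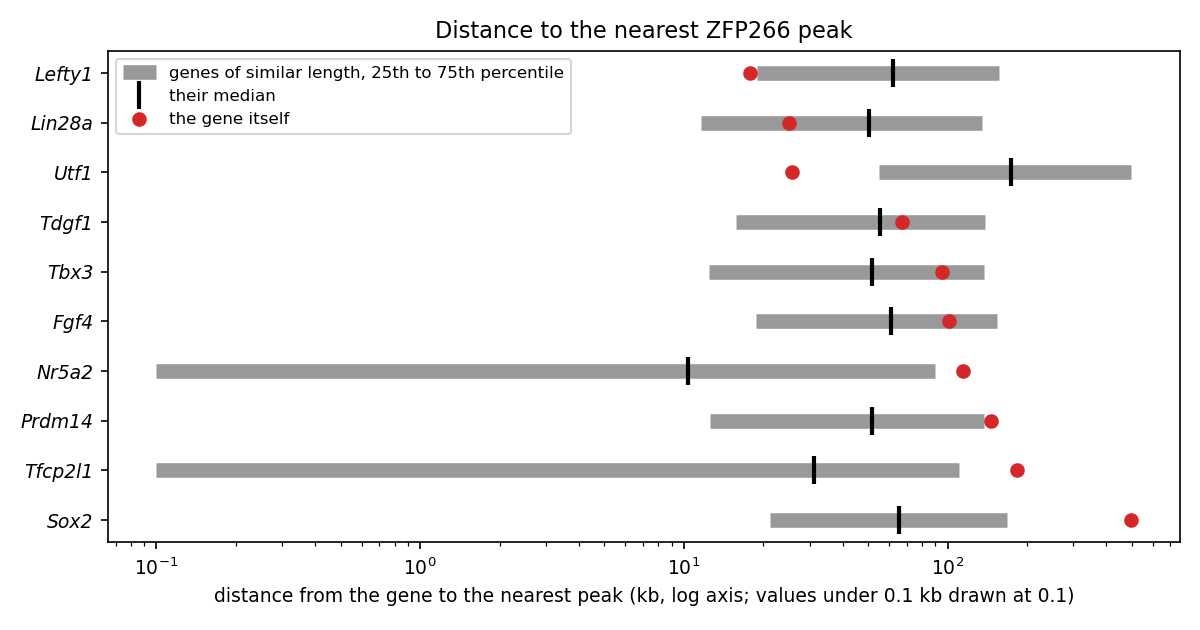
Distance from each of the 10 genes to its nearest ZFP266 peak in kb on a log axis (red points), with the 25th to 75th percentile (grey bars) and the median (black lines) of genes of similar length. The points of Prdm14, Tfcp2l1, Nr5a2 and Sox2 lie to the right of the grey bar and those of Utf1 and Lefty1 to the left of it.

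B1 SINEs were numerous in these windows although few were in a peak. Each of the 10 genes had more B1 SINEs per 100 kb than the median gene of similar length. The density ran from 17.17 per 100 kb at Tfcp2l1 (similar genes 16.94) to 45.89 at Lin28a (21.29), and was 44.29 at Fgf4 (20.59) and 41.32 at Prdm14 (21.66). At Utf1 it was 22.71, where the median of genes of similar length was 5.94. The median of the 10 was 26.16 per 100 kb, beside 15.98 for all genes. In all, the 10 windows held 363 B1 SINEs, and 5 of them (1.38%) overlapped a peak by at least 1 base, beside 6961 of 270877 (2.57%) in the genome. For copies of at least 90% identity, 3 of 160 were in a peak, beside 3.27% in the genome. Nr5a2 carried 19 B1 SINEs inside the gene, Tfcp2l1 11, Prdm14 and Lin28a 4 each, and Tbx3 and Tdgf1 1 each, none of them in a peak. In Utf1, Fgf4, Lefty1 and Sox2 there was no B1 SINE in the gene, and the closest copy was 3616 bp, 624 bp, 1533 bp and 13374 bp away.

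Over all protein-coding genes, the share with a peak within 50 kb was 28.6%, 45.2%, 57.2% and 67.6% in 4 equal groups of genes from the lowest to the highest B1 density. None of the 10 genes was in the lower 2 groups. The next group held 7 of them, 2 with a peak, and the group of highest density held 3, 1 with a peak. When the genes for comparison were restricted to similar length and a B1 density of 0.8 to 1.25 times that of the gene, a restriction chosen after the values were seen, the mean share with a peak within 50 kb was 59.9%. It was 68.4% for Lin28a, 46.7% for Utf1 and 56.6% for Lefty1, and 77.4% for Nr5a2, which had no peak.

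AP-1 words were closer to the typical density, from 10.74 per 100 kb at Sox2 to 21.1 at Prdm14, with a median of 18.68 beside 17.08 for all genes. In 7 of the 10 windows the density was above the median of genes of similar length, the exceptions being Sox2, Fgf4 and Lefty1. Of the 217 AP-1 words in the windows 6 were in a peak, beside 2.37% of 433145 in the genome.

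**Figure D4:**
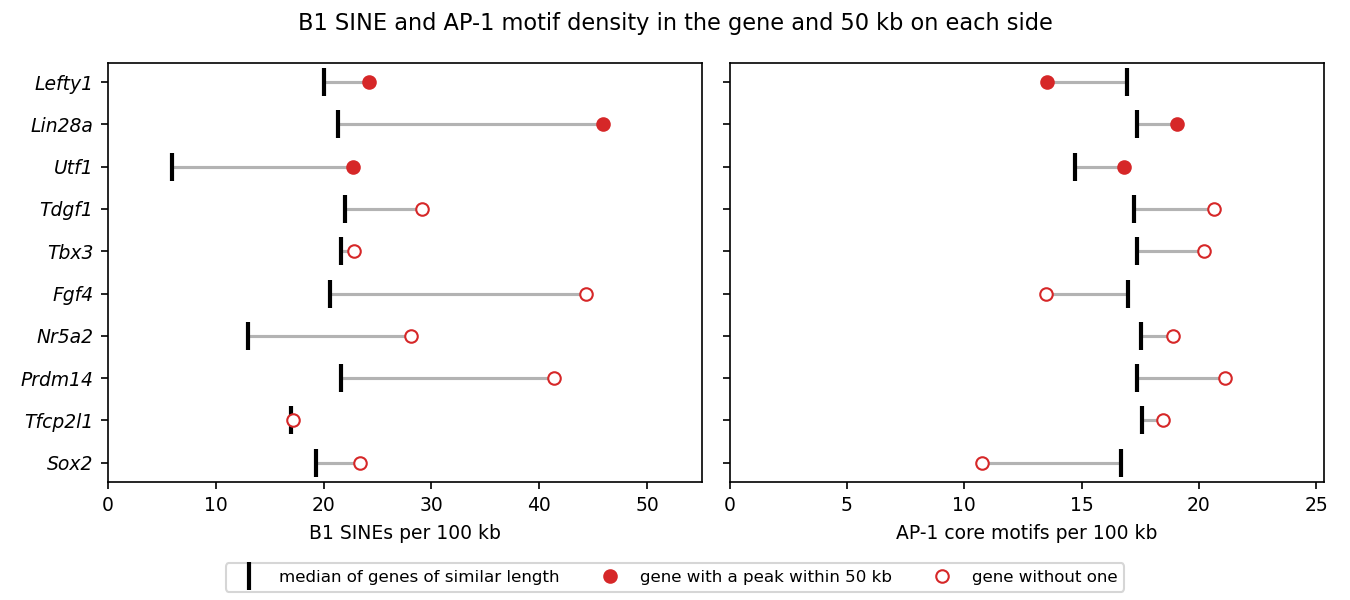
B1 SINEs (left) and AP-1 core words (right) per 100 kb in the window of each gene (red circles, filled where the window holds a peak), with the median of genes of similar length (black lines). Left, all 10 circles lie to the right of their line, from 17.17 to 45.89, and right, the circles of Lefty1, Fgf4 and Sox2 lie to the left.

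The spacing of GATC sequences, which sets what DamID can resolve, was near that of all genes in the median and varied among the windows. GATC density was 2.22 (Sox2) to 2.73 (Fgf4) per kb with a median of 2.54, beside 2.48 for all genes. The share of bases in DpnII fragments of at least 1000 bp was 24.51% at Fgf4 to 36.06% at Lefty1, with a median of 30.6% beside 30.14%. Some windows stood toward the ends of the range of genes of similar length. The GATC density of Sox2, the gene farthest from a peak, was at percentile 7.6 of these genes and its share of long fragments at percentile 86.5, and the GATC density of Prdm14 was at percentile 15.6. The share of long fragments was at percentile 88.2 for Lefty1 and at percentile 6.1 for Nr5a2. Over all protein-coding genes, the share with a peak within 50 kb rose with the share of long fragments. It was 41.6%, 49.7%, 53.0% and 54.4% in 4 equal groups of genes from the lowest to the highest share. The part of GATC spacing in the distances of the 10 genes was not tested. Inside the genes the longest fragment was between 1118 bp (Tdgf1) and 2211 bp (Tbx3), where the median peak of the list was 1777 bp long. Utf1 was covered by 2 fragments and Sox2 by 6, so that a call in either gene would rest on few fragments. That is usual for the list, where 55.7% of all peaks were a single fragment. GC content was 44.24% to 50.86% and above the median of similar genes for 8 of the 10 windows. Over all protein-coding genes, the share with a peak within 50 kb was 29.9%, 49.7%, 58.4% and 60.6% in 4 equal groups from the lowest to the highest GC content. The highest group held 5 of the 10 genes, 3 with a peak. The group below it held 4 and the next 1, none with a peak. The part of GC content was not tested.

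The wider surroundings were also measured. Within 1 Mb centred on the gene the number of peaks was 1 at Sox2, 3 at Tbx3, 4 at Tfcp2l1, Utf1 and Lefty1, 5 at Nr5a2 and Tdgf1, 6 at Prdm14, and 15 at Lin28a and Fgf4. The median was 4.5, beside 7 for all genes, and 2 of the 10 genes were above the median of genes of similar length. The number of protein-coding genes in the same 1 Mb ran from 1 at Sox2 to 33 at Lin28a, with a median of 9 beside 16 for all genes. Lin28a, Utf1 and Lefty1 had 33, 28 and 17 genes around them. Of the 7 genes without a peak in the window, 5 had between 1 and 5 genes in 1 Mb, and Tdgf1 and Fgf4 had 27 and 13. Over all protein-coding genes the share with a peak within 50 kb hardly moved with gene density, from 50.9% in the lowest of 4 equal groups to 49.7% in the highest. The part of local gene density in the positions of the peaks near the 10 genes was not tested.

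Other genes of the same network were counted from lists by name. Of 26 other pluripotency genes, 5 had a peak in the gene (19.2%), 10 within 10 kb (38.5%) and 12 within 50 kb (46.2%), where genes of similar length gave 12.7%, 24.3% and 49.4%. Peaks lay in Tet1 (2), which oxidises methylcytosine, in Stat3 (1), the effector of LIF, in the nuclear receptor gene Esrrb (1), in the zinc finger gene Zscan10 (1) and in Trim71 (2), a target of let-7. The strongest peak within 50 kb of these genes had a signal value of 1.56 at Esrrb (FDR 0.00068), 1.54 at Zscan10, 1.35 at Trim71, 1.23 at Stat3 and 1.18 at Tet1. These 5 are the highest of the list. For the other 7 genes with a peak within 50 kb the strongest value was 1.08 at Nanog, 1.09 at the peak shared by Gdf3 and Dppa3, 1.13 at Sall4, 1.15 at Pou5f1 and Dppa5a and 1.17 at Klf5, where the Lin28a peak had 1.08, the Lefty1 peak 0.64 and the shorter Utf1 peak 1.5. The median distance to the nearest peak was 75.7 kb for the 26 genes, beside 98.4 kb for the 10.

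Of 13 genes of the Nodal pathway, to which Tdgf1 and Lefty1 belong, 3 had a peak in the gene (23.1%), 4 within 10 kb (30.8%) and 8 within 50 kb (61.5%), beside 20%, 30.2% and 52.7% for similar length. The 3 were the intracellular mediators Smad3 with 11 peaks, Smad4 with 3 and Smad2 with 1. Nodal itself had its nearest peak at 28.1 kb, the receptor gene Acvr1b had 2 peaks within 50 kb, the nearest at 8.2 kb, and the receptor genes Acvr2a, Acvr2b and Acvr1c had none within 50 kb. Of 15 genes of the FGF pathway, to which Fgf4 belongs, 6 had a peak in the gene (40.0%), 8 within 10 kb (53.3%) and 11 within 50 kb (73.3%), beside 16.5%, 27.8% and 52.3%. These were the receptor genes Fgfr1 with 5 peaks and Fgfr2 with 2, the adaptor gene Grb2, the Ras exchange factor gene Sos1 and the ETS factor genes Etv4 and Etv5 with 1 each. The ligand genes Fgf3, Fgf4, Fgf5, Fgf8, Fgf15, Nodal, Gdf1 and Gdf3 had no peak in the gene. Most of them are short, from 3860 bp (Fgf4) to 7367 bp (Nodal), with Gdf1 at 15818 bp and Fgf5 at 22850 bp. Few genes of such length had a peak in the gene, 4.1% for the length of Fgf4 and 6.0% for that of Tdgf1 (6551 bp). Fgfr1 and Fgfr2 are longer, at 56960 bp and 104358 bp, so the ligand and receptor genes are not comparable here.

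Close relatives of the 10 genes, 18 in number, had a peak in the gene in 1 case (5.6%, Ubp1, a CP2-family relative of Tfcp2l1), within 10 kb in 2 (11.1%) and within 50 kb in 5 (27.8%), beside 16.7%, 27.5% and 51.2% for similar length. The 5 were Ubp1, Prdm1, Prdm12, Nr5a1 and Lefty2, the last through the peak it shares with Lefty1. Sox3 and Prdm13 were 1323.6 kb and 1035.1 kb from any peak. The lists share Gdf3, Cfc1 and Lefty2, and neighbours such as Lefty1 and Lefty2 share peaks, so the genes are not independent of each other.

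**Figure D5:**
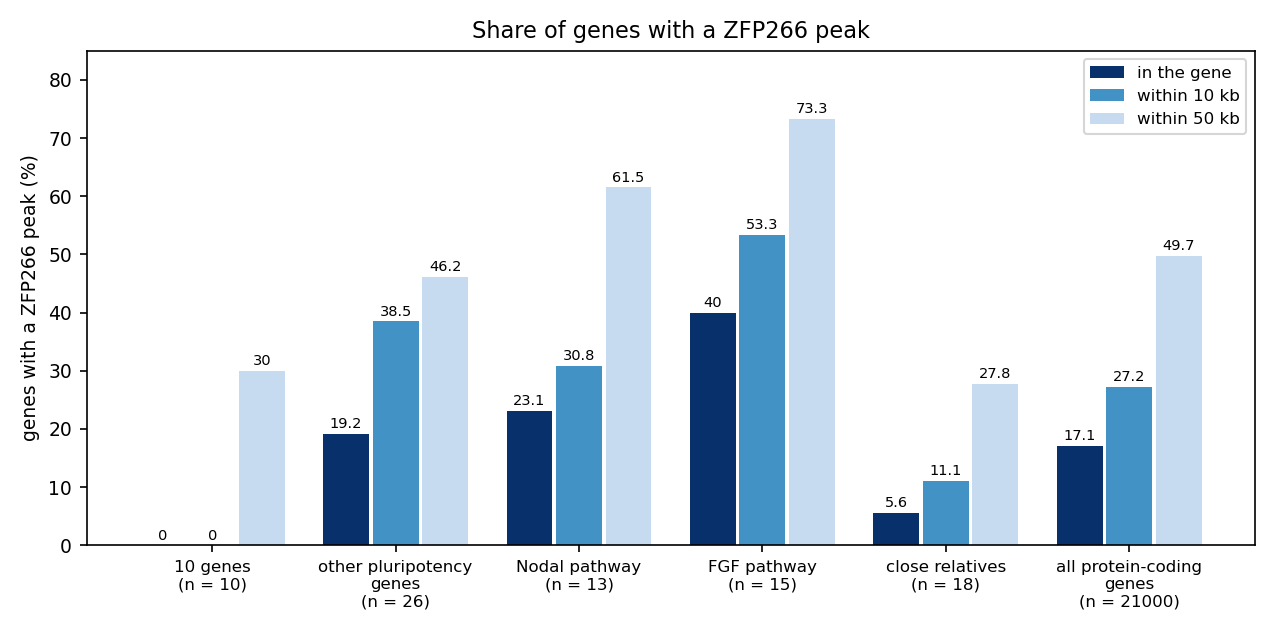
Share of genes (%) with a ZFP266 peak in the gene, within 10 kb and within 50 kb, for the 10 genes, 4 lists of related genes and all 21000 protein-coding genes, with n under each group and no error bar since the list is pooled. The 10 genes stand at 0, 0 and 30%, all genes at 17.1, 27.2 and 49.7%, and the FGF pathway at 40.0, 53.3 and 73.3%.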

How the data were processed

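Per the study's methods, the authors trimmed adapters (Cutadapt), mapped reads to GRCm38 (BWA), discarded those on the mitochondrial genome or in blacklisted regions, assigned the rest to DpnII fragments (Rsubread) and called binding regions with Daim. Versions of these tools are not given in the sources used here. The deposited list gives for each peak a score, a signal value of Dam-ZFP266 against Dam only, whose scale is not stated in the methods, and the −log10 q-value that the authors' caller assigned. Its −log10 p was not used. The score was proportional to −log10 q up to a limit of 1000, and the lowest −log10 q was 1.0. The methods name an FDR below 0.05 and a log2 fold change above 1 as example thresholds, and the deposited list, with an FDR up to 0.1 and signal values down to 0.23, is looser. Whether the signal value is a log2 fold change is not stated.

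Because the list pools 10 samples, depth per sample is unknown and no replicate error, interval or test could be computed. Every peak began and ended at a DpnII cut in GATC. Coordinates are 1-based. Genes were the spans of 45756 curated RefSeq transcripts on GRCm38.p6, and distances ran from the nearer gene end to the nearer peak end. Percentages beside a gene are over genes of 0.5 to 2 times its length, the gene itself left out.

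B1 SINEs were found with blastn 2.17.0. Copies similar to the 7SL RNA gene Rn7s1 of RefSeq gave a majority consensus, with which the genome was searched again. Computation used Python 3.11.15, numpy 2.4.6 and pandas 2.3.3, and matplotlib 3.10.9 for the plots. The distance step was tested on simulated peaks placed at 200 genes and recovered 200. The genes named were all 10, the genes at or starting nearest to their peaks (1 is not reported here), and from each list those with a peak in the gene or the highest signal values. Members and lists were chosen with earlier results of these data known. Other genes named beside them (Nodal, the receptors, the ligands, Sox3, Prdm13 and the pluripotency genes with lower signal values) were picked after their values were seen. The promoters of the 10 genes are not printed, since no peak lay there.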

Additional observations from a re-analysis of the deposited data

How the results depend on the processing

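No gene of the 10 had a peak in the gene or within 10 kb under any alternative run (peak subsets, gene models, 50% overlap). The peak subsets and the 50% overlap can only remove peaks, so their outcome was fixed by the main count. Only the other gene models could have changed it, and they did not. The count within 50 kb and the distances depended on the peaks kept and the window. With peaks past the example thresholds of the methods, FDR below 0.05 and, read as the fold change, a signal value above 1 (3986 peaks, 26.4% of the list), 2 genes (Lin28a and Utf1) kept a peak beside 21.9% of all genes, the peaks numbered 2 and the median distance was 322.2 kb. With the higher-scoring part of the list 1 gene (Utf1) had a peak beside 32.7%, the peaks numbered 2 and the median distance was 185.8 kb, since the Lin28a peak, at a −log10 q of 1.33, sat at the list median and was left out. Within 20 kb 1 gene had 1 peak beside 34.2% of all genes, and within 100 kb 5 genes had 7 peaks beside 65.4%. With predicted RefSeq models, GENCODE vM21 genes, 50% overlap or the start site in place of the gene, 3 genes had a peak, beside 49.0%, 49.3%, 49.3% and 42.8% of all genes, and the median distance, where recomputed, was 98.2 to 100.3 kb. Joining peaks less than 1 kb apart left 3 loci. Of 50 recomputed distances of single genes 9 moved by more than 1.5 times. All 9 were in the runs that kept only part of the peak list, and none moved with other gene models or the start site. No sample could be left out and no paired analysis was possible because the list gives no value per sample.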
